A study of Mus musculus with 6 samples.

Results

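The interferon regulatory factors (IRFs) are described here in mouse bone marrow derived dendritic cells with and without exposure to calcium hydroxide nanoparticles. The members were the genes whose name in the deposited expression table was Irf1, Irf2, Irf3, Irf4, Irf5, Irf7, Irf8 or Irf9, which gave 8 of the 23398 genes. Their choice used no expression value from these libraries. The series holds 3 libraries from cells given vehicle and 3 from cells given Ca(OH)2 nanoparticles, each treated for 12 hours and each made from 1 µg of total RNA. All 6 came from mouse bone marrow derived dendritic cells kept in DMEM with serum and antibiotics. Mouse strain, age, particle dose and the growth factors used to derive the cells are not given in the sources used here. Nothing says that the libraries of a group came from separate cultures or mice, so p-values measure only the spread between these libraries, which may be technical.

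IRFs are transcription factors that share a DNA-binding domain at their amino-terminal end, which contacts repeats of GAAA in interferon-responsive promoters. IRF3 and IRF7 are latent in the cytoplasm until a kinase downstream of pattern recognition receptors phosphorylates them, and then switch on interferon genes. IRF9 is the DNA-binding part of ISGF3, the complex with STAT proteins that carries the signal of the type I interferon receptor. IRF1 activates and IRF2 mostly restrains promoters of the same kind, IRF5 drives inflammatory cytokine genes, and IRF4 and IRF8 bind together with partners such as PU.1 and BATF factors and direct the development of dendritic cell subsets.

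Promoter stretches are shown because members that changed and members that did not can be compared for the letters bound by STAT, NF-kappaB and IRF proteins. RefSeq promoter windows on GRCm38.p6, from 250 bases before to 50 bases after the annotated start, were found for all 8 members (11 windows, since Irf1, Irf8 and Irf9 have more than 1 start). Each was searched on both strands for 4 motifs. These were the interferon-stimulated response element ISRE (GAAA, any 2 bases, GAAA), the ETS-IRF composite element EICE (GGAA, any 2 bases, GAAA), the gamma-activated sequence GAS (TTC, any 3 bases, GAA) and the kappaB consensus. The 100-base stretches below lie upstream of the start, read 5′ to 3′ on the gene's strand, with matches in capitals.
Irf1, chr11:53769914-53770013, plus strand: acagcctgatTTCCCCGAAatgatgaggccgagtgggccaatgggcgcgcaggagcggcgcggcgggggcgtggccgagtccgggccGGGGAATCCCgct
Irf8, chr8:120736158-120736257, plus strand: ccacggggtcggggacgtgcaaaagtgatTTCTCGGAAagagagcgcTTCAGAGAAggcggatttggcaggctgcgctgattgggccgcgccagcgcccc
Irf2, chr8:46739495-46739594, plus strand: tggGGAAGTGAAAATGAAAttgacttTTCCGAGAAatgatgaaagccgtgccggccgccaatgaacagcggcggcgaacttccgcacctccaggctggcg
Irf7, chr7:141266485-141266584, minus strand: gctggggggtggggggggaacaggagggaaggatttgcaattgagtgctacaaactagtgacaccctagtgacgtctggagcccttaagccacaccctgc
The Irf1 stretch holds a GAS match, TTCCCCGAA, and a kappaB match, GGGGAATCCC, which start 90 and 13 bases before the annotated start. The Irf8 stretch holds 2 GAS matches, TTCTCGGAA and TTCAGAGAA. The second windows of Irf1 and Irf8 hold no match. In Irf2 the capitals run together because an EICE match, GGAAGTGAAA, and an ISRE match, GAAAATGAAA, share 4 bases. A GAS match, TTCCGAGAA, follows them, and the Irf2 window holds a kappaB match, GGGGATTTCC, nearer to its start; the stretch overlaps an exon of the gene model Gm16675. The Irf7 stretch, from 160 to 61 bases before the start of the member with the largest increase, has no match, and neither do the rest of its window and the windows of Irf3, Irf4, Irf5 and Irf9. Over all 32851 promoter windows of the same length, ISRE matches occurred in 3.44%, EICE in 2.72%, GAS in 8.3% and kappaB in 8.46%. The letters are a description of these windows and do not show that a factor binds there.

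Expression was deposited as FPKM, fragments per kilobase of gene length on a library scale set by the authors. Whole reads could be recovered from these values, with 17283588 to 21978306 reads per library. Nanoparticle library 1 stood apart from the other libraries of its group. The chi-square per degree of freedom of its read counts against nanoparticle libraries 2 and 3 was 173 and 231, compared with 11.8 between those 2 libraries and 2.85 to 5.34 among vehicle libraries. Results that rest on this library are given with and without it. The dendritic cell markers Itgax (442 to 456 FPKM in vehicle) and Cd74 (3902 to 4264 FPKM in vehicle) were abundant. Zbtb46 was at 3.66 to 4.15 FPKM in vehicle, and Flt3 was at most 0.0793 FPKM in any library. In nanoparticle library 1 Itgax was at 248 FPKM and Cd74 at 2270 FPKM. Macrophage markers were also present, with Csf1r at 158 to 159 FPKM in the vehicle libraries.

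All 8 members had at least 1 FPKM in every library, so each passed the filter on low values without help from the treated group, and their recovered reads ran from 141 to 22541. Irf7, Irf1, Irf9 and Irf8 rose with nanoparticles, and no member fell past the threshold. This was 4 of 8 members, where limma called 33.2% of the 10682 tested genes in either direction, 17.0% of them higher and 16.2% lower (Benjamini-Hochberg adjusted p under 0.05). The treated and vehicle libraries did not overlap for the same 4 members and for Irf2, which lay lower; over all tested genes this held for 52.1%, 25.9% in the higher and 26.2% in the lower direction. The median log2 change of the members was 0.68, against 0.00 for all tested genes. All log2 changes compare means of log2(FPKM + 1), so those of genes with low values come out too small. They are relative to the authors' scaling: with libraries scaled by their total reads the median of all genes moved to -0.28. With that scaling 4 members rose and 1, Irf2, fell, where 44.2% of all tested genes were called, 10.4% higher and 33.8% lower. Without nanoparticle library 1, 5 members rose (Irf5 in addition) and Irf2 fell, where 64.8% of all tested genes were called, 34.3% higher and 30.5% lower.

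**Figure D1:**
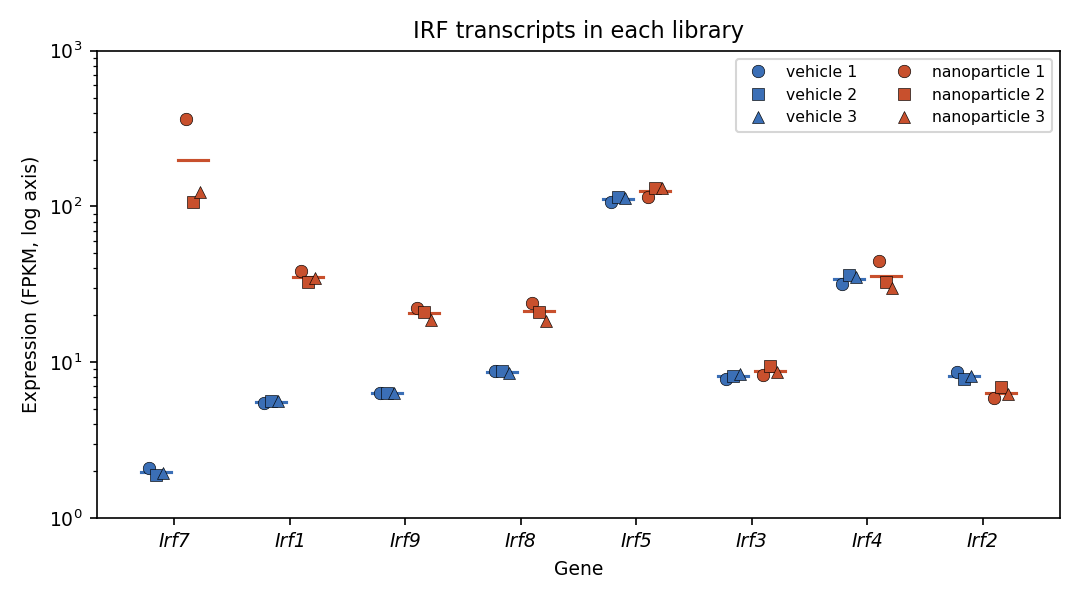
Expression of the 8 IRF genes in each library, as FPKM on a log axis; symbols mark the replicate number, colours the group and horizontal bars the group mean (n = 3). The treated libraries lie above all vehicle libraries for Irf7, Irf1, Irf9 and Irf8 and below them for Irf2, and nanoparticle library 1 stands out for Irf7 at 366 FPKM.

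Irf7, which amplifies type I interferon production once the first interferon has acted on a cell, changed most. The gene (ENSMUSG00000025498, protein coding) lies on the minus strand of chromosome 7, 141262706 to 141266481 in GENCODE M21 on GRCm38. It was at 2.10, 1.88 and 1.95 FPKM in vehicle libraries 1 to 3 and at 366, 106 and 124 FPKM in nanoparticle libraries 1 to 3. Every treated library was far above every vehicle library, and library 1 was 3.18 times the mean of the other treated libraries. The vehicle values rested on 141 to 158 reads and the treated values on 6641 to 22541 reads. The means were 1.98 ± 0.111 and 199 ± 145 FPKM (SD, n = 3 each), a 100.3-fold difference, and by limma the log2 change was 5.83 ± 0.453 (SE; adjusted p = 3.3e-04). With nanoparticle library 1 left out, the fold was 58.1 and the log2 change 5.28. In rank among the tested genes Irf7 went from the 17.1 to the 97.3 percentile of mean level, and its log2 change was the 24th largest.

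Irf3, the constitutively made relative of Irf7 that is activated by phosphorylation, did not pass the threshold. The gene (ENSMUSG00000003184) lies on the plus strand of chromosome 7, 44997648 to 45002848. It was at 7.80, 8.19 and 8.36 FPKM in vehicle and at 8.24, 9.39 and 8.64 FPKM with nanoparticles. The groups overlapped, since nanoparticle library 1 lay inside the vehicle range. The log2 change was 0.10 (95% interval -0.13 to 0.32, limma adjusted p = 0.4766), and with total read scaling it was -0.21. Within each library, where the scaling between libraries has no part, the log2 ratio of Irf7 to Irf3 went from -2.04 ± 0.13 in vehicle to 4.27 ± 1.05 with nanoparticles (SD, n = 3 each). On the FPKM scale Irf3 was thus above Irf7 in all 3 vehicle libraries and below it in all 3 treated libraries.

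Irf9, the DNA-binding subunit of ISGF3, was higher in all treated libraries. The gene (ENSMUSG00000002325) lies on the plus strand of chromosome 14, 55603571 to 55610030. It was at 6.29, 6.38 and 6.34 FPKM in vehicle, the tightest vehicle group of the family (coefficient of variation 0.695%), and at 22.3, 20.9 and 18.6 FPKM with nanoparticles. The means of 6.34 ± 0.0440 and 20.6 ± 1.87 FPKM (SD, n = 3 each) differed 3.24-fold, and limma put the log2 change at 1.55 ± 0.101 (SE; adjusted p = 1.8e-04). Irf9 shares 123 exonic bases with Rnf31, a neighbouring gene on the same strand, and how reads in that stretch were assigned is not stated. Rnf31 stood at 4.34 to 4.67 FPKM in vehicle and 9.48 to 13.3 FPKM with nanoparticles. The log2 ratio of Irf7 to Irf9 within a library was -1.68 ± 0.09 in vehicle and 3.04 ± 0.88 with nanoparticles (SD, n = 3 each).

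Irf1 and Irf2, which bind the same elements and act as activator and mostly as repressor, lay on opposite sides of 0 in their changes. Irf1 (ENSMUSG00000018899, plus strand of chromosome 11, 53770014 to 53778374) was at 5.50, 5.59 and 5.65 FPKM in vehicle and at 38.3, 32.9 and 34.9 FPKM with nanoparticles. The treated libraries were close to each other, and library 1 was 1.13 times the mean of the other treated libraries. The means were 5.58 ± 0.0736 and 35.4 ± 2.75 FPKM (SD, n = 3 each), a 6.34-fold difference, and limma put the log2 change at 2.46 ± 0.0975 (SE; adjusted p = 3.9e-05). Irf1 has the smallest adjusted p of the family, although its fold is far below that of Irf7, whose treated libraries vary more. Of its 2 promoter windows the one shown above holds a GAS and a kappaB match, and the other holds no match.

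Irf2 (ENSMUSG00000031627, plus strand of chromosome 8, 46739732 to 46847458) was at 8.62, 7.84 and 8.09 FPKM in vehicle and at 5.86, 6.95 and 6.27 FPKM with nanoparticles. All treated libraries were below all vehicle libraries, with means of 8.18 ± 0.396 and 6.36 ± 0.551 FPKM (SD, n = 3 each). The log2 change of -0.32 (95% interval -0.56 to -0.08, limma adjusted p = 0.0507) was just outside the threshold. It passed at -0.27 without nanoparticle library 1 (limma adjusted p = 0.0182), where 30.5% of all tested genes were called lower. With total read scaling it passed at -0.62 (limma adjusted p = 0.0032). There 33.8% of all tested genes were called lower and the median of all genes was -0.28. Irf2 passed in 4 of 15 alternative settings and not in the other 11. With 1 vehicle library left out its limma adjusted p was 0.1355 to 0.1895, and with the replicate number as a block it was 0.1466. The log2 ratio of Irf1 to Irf2 within a library was -0.65, -0.49 and -0.52 in vehicle and 2.71, 2.24 and 2.48 with nanoparticles. The balance of the 2 transcripts turned in every library, from a mean Irf1 to Irf2 ratio of 0.683 in vehicle to 5.56 with nanoparticles on the FPKM scale. With principal transcript lengths the ratios were 0.429 and 3.49.

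**Figure D2:**
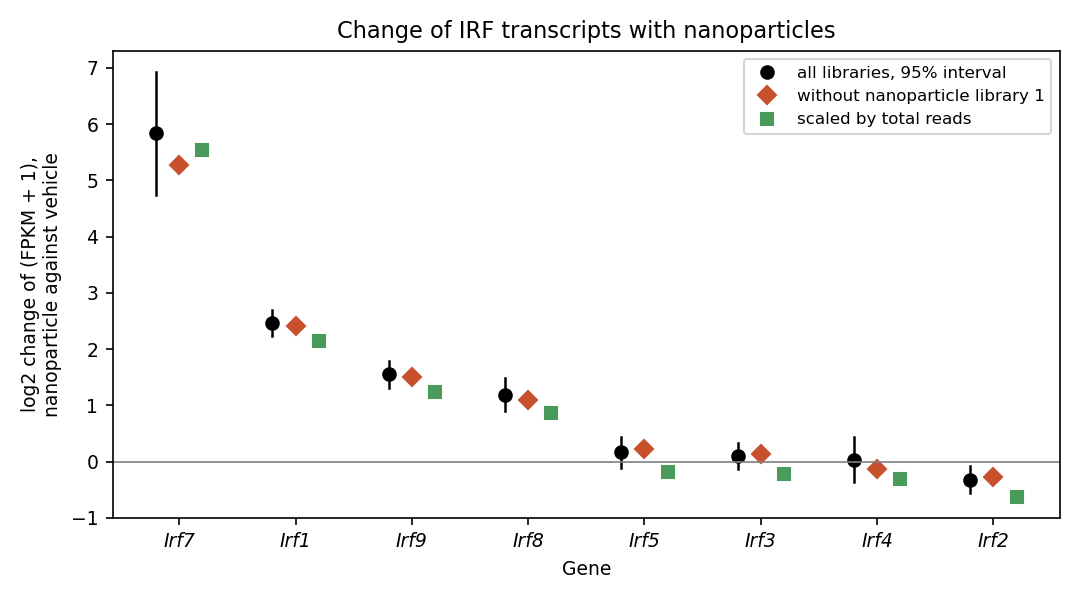
Log2 change of (FPKM + 1) between nanoparticle and vehicle libraries for each IRF gene; black points with lines are limma estimates over all libraries with 95% intervals, diamonds leave out nanoparticle library 1 and squares use total read scaling. Irf7, Irf1, Irf9 and Irf8 stay above 0 in all 3, and Irf5, Irf3 and Irf4 lie near 0 and turn negative with total read scaling, Irf4 also without nanoparticle library 1.

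Irf8 and Irf4 are the members tied to dendritic cell subsets, Irf8 to the cross-presenting type 1 and to plasmacytoid dendritic cells and Irf4 to type 2 cells and migration. Irf8 (ENSMUSG00000041515, plus strand of chromosome 8, 120736358 to 120756694) was at 8.82, 8.75 and 8.47 FPKM in vehicle and at 24.1, 21.1 and 18.4 FPKM with nanoparticles. Every treated library was above every vehicle library. The means of 8.68 ± 0.189 and 21.2 ± 2.84 FPKM (SD, n = 3 each) differed 2.44-fold, past the limma threshold (SE of the log2 change 0.12; adjusted p = 8.1e-04). In bulk RNA a change in the share of cells that make a transcript and a change in RNA per cell cannot be told apart.

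Irf4 (ENSMUSG00000021356, plus strand of chromosome 13, 30749226 to 30766976) was at 32.0, 36.1 and 35.02 FPKM in vehicle and at 44.7, 32.5 and 29.9 FPKM with nanoparticles. The groups overlapped: library 1 was above all vehicle libraries, library 3 was below them and library 2 was among them. The log2 change was 0.03 (95% interval -0.37 to 0.44, limma adjusted p = 0.8959), and it turned to -0.13 without nanoparticle library 1 and to -0.30 with total read scaling. The log2 ratio of Irf4 to Irf8 within a library was 1.98 ± 0.11 in vehicle and 0.74 ± 0.14 with nanoparticles (SD, n = 3 each), with no overlap. Irf4 was thus 3.95 times Irf8 in vehicle and 1.67 times with nanoparticles on the FPKM scale. With principal transcript lengths in place of all exonic bases the ratios were 1.64 and 0.692, so that Irf4 then stood below Irf8 with nanoparticles. The difference between groups is the same with either length.

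Markers of the subsets were read beside these values. Over all tested genes 17.0% were called higher and 16.2% lower, and 34.3% and 30.5% without nanoparticle library 1. Of 7 general dendritic cell markers 6 could be tested, and of these Ccr7 rose and Zbtb46 fell (log2 change -0.60, limma adjusted p = 0.0191). For these general markers 2 rose and 2 fell without nanoparticle library 1. Of 7 type 1 markers 4 could be tested, and of these Itgae, Wdfy4 and Clec9a fell and 0 rose. Without nanoparticle library 1 the same 3 fell and Batf3 rose (log2 change 0.64, limma adjusted p = 2.8e-04). Clec9a, the receptor for dead cell remains on type 1 cells, was at 6.33 to 6.74 FPKM in vehicle and 1.49 to 4.59 FPKM with nanoparticles, and Xcr1 was at or under 0.181 FPKM in vehicle and at 0.711 to 2.21 FPKM with nanoparticles. The summed level of the 7 markers was 36.2 to 38.9 FPKM in vehicle and 19.2 to 26.5 FPKM with nanoparticles. Of 7 type 2 markers 6 could be tested, and of these Cd209a, Klf4, Clec10a and Mgl2 fell and 0 rose. Without nanoparticle library 1 the same 4 fell and Sirpa rose (log2 change 0.18, limma adjusted p = 0.0258). The type 2 list had summed levels of 570 to 588 and 309 to 425 FPKM. Of 7 plasmacytoid markers 2 could be tested, Bst2 and Cox6a2, and both were called higher, but Cox6a2 reached the filter only through its treated values. Siglech, the defining marker of these cells, was at or under 0.0149 FPKM in vehicle and listed at 0 in every treated library. The summed level of that list went from 98.2 to 107 FPKM in vehicle to 771 to 1043 FPKM with nanoparticles. Nearly all of that sum was Bst2, which is also an interferon-induced gene (log2 change 3.18, limma adjusted p = 8.4e-05). Cox6a2 was at 0.443 to 0.704 FPKM in vehicle and 1.45 to 3.60 FPKM with nanoparticles (log2 change 1.12, limma adjusted p = 0.0127). Since a gene this low in vehicle is tested only if its treated values are high, its call carries no weight.

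Markers of other cells were read in the same way. The summed level of the B cell list was at most 0.394 FPKM and that of the T and NK cell list at most 0.538 FPKM in any library, and no gene of either reached the filter. In the mast cell and basophil list the basophil gene Mcpt8 was at most 0.0605 FPKM. Hdc, the histidine decarboxylase gene of the same list, was at 0.196 to 0.474 FPKM in vehicle and 6.69 to 24.1 FPKM with nanoparticles (log2 change 3.10, limma adjusted p = 0.0035). Like Cox6a2 it reached the filter only through its treated values, so its call carries no weight. Cpa3 was at 0.0993 to 1.29 FPKM in vehicle and 0.0807 to 1.47 FPKM with nanoparticles. Of 7 macrophage markers, all tested, 3 rose and 2 fell, with summed levels of 726 to 783 and 868 to 1138 FPKM. The counts were 4 and 3 without nanoparticle library 1, with Csf1r and Mertk in addition, and 2 and 2 with total read scaling. Over all tested genes 34.3% were called higher and 30.5% lower without that library, and 10.4% and 33.8% with total read scaling. Of 2 neutrophil markers that could be tested S100a8 rose and S100a9 did not pass. Without nanoparticle library 1 S100a9 passed (log2 change 2.54, limma adjusted p = 4e-05). It had reached the filter only with the help of nanoparticle libraries 2 and 3, so that call carries no weight. Ngp, Camp and S100a9 were higher in nanoparticle libraries 2 and 3 than in library 1. The part of cell make-up in the IRF values was not tested.

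Irf5, which acts downstream of Toll-like receptors in inflammatory cytokine induction, was the most abundant member in vehicle. The gene (ENSMUSG00000029771) lies on the plus strand of chromosome 6, 29526625 to 29541871. It was at 107, 115 and 114 FPKM in vehicle and at 114, 132 and 132 FPKM with nanoparticles. Nanoparticle libraries 2 and 3 were above the vehicle range and library 1 was inside it. The log2 change was 0.16 (95% interval -0.12 to 0.44, limma adjusted p = 0.3289). It passed at 0.23 without nanoparticle library 1 (limma adjusted p = 0.0086), where 34.3% of all tested genes were called higher, and it was -0.18 with total read scaling. The direction of the Irf5 change therefore rests on the scaling, whereas its ratio to Irf8 does not: the log2 ratio was 3.69 ± 0.08 in vehicle and 2.57 ± 0.30 with nanoparticles (SD, n = 3 each). With principal transcript lengths it was 2.76 and 1.64.

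The groups did not overlap for any of the 5 ratios between members. For each, the exact two-sided permutation test gave p = 0.1 (adjusted p = 0.1 over 5 ratios, n = 3 per group), which is the smallest p that 3 libraries against 3 allow. The largest difference was 6.31 on the log2 scale for Irf7 to Irf3, followed by 4.72 for Irf7 to Irf9 and 3.03 for Irf1 to Irf2. Irf4 to Irf8 and Irf5 to Irf8 were lower in every treated library, with differences between group means of -1.25 and -1.12 on the log2 scale.

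**Figure D3:**
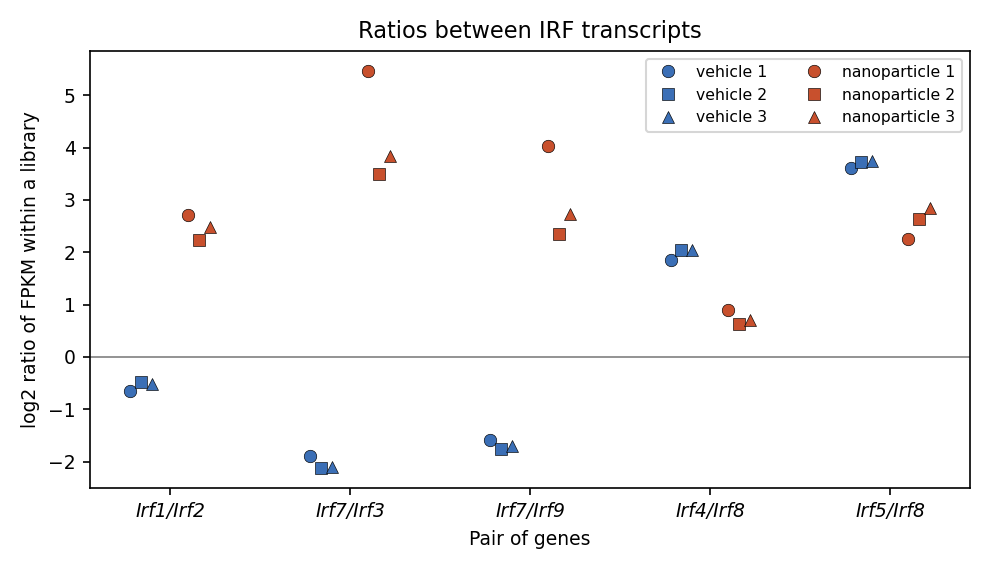
Log2 ratio of FPKM between pairs of IRF genes within each library; symbols mark the replicate number and colours the group. The Irf1/Irf2, Irf7/Irf3 and Irf7/Irf9 ratios cross 0 between groups, from -0.55, -2.04 and -1.68 on average in vehicle to 2.48, 4.27 and 3.04 with nanoparticles.

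The summed level of the 8 members was 178, 190 and 188 FPKM in vehicle and 623, 362 and 372 FPKM with nanoparticles. All treated libraries exceeded all vehicle libraries, with means of 185 ± 6.10 and 452 ± 148 FPKM (SD, n = 3 each, exact two-sided permutation p = 0.1). Irf5 made up 60.2% to 60.7% of the vehicle sum, and Irf4 17.9% to 19.0%. With nanoparticles Irf5 made up 18.3%, 36.4% and 35.4% in libraries 1 to 3. Irf7 went from 0.992% to 1.18% of the sum in vehicle to 58.6%, 29.4% and 33.3% in nanoparticle libraries 1 to 3. The share of Irf8 in the sum overlapped between groups, at 4.69% ± 0.229 and 4.89% ± 0.991 (SD, n = 3 each), although its level rose.

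**Figure D4:**
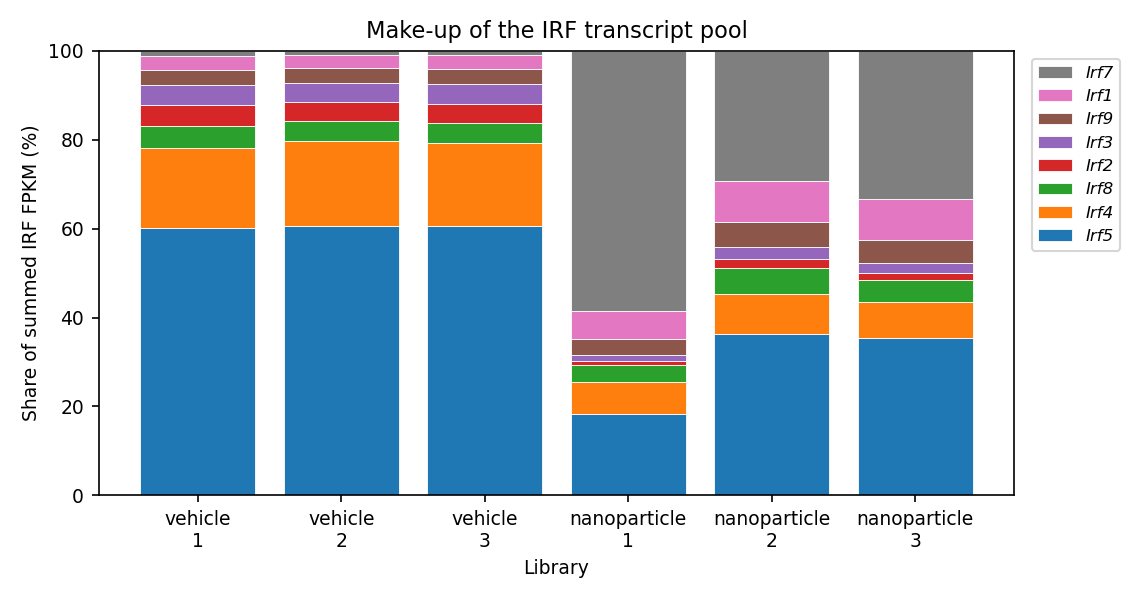
Share of each IRF gene in the summed FPKM of the 8 members, as a stacked bar per library. Irf5 and Irf4 fill most of the 3 vehicle bars, and Irf7 fills 58.6% of the bar of nanoparticle library 1 and 29.4% and 33.3% of those of libraries 2 and 3.

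In vehicle the order of FPKM levels was Irf5, Irf4, Irf8, Irf2, Irf3, Irf9, Irf1 and Irf7. The ranges of Irf8 and Irf2 overlapped, as did those of Irf2 and Irf3, and all other neighbours were separate. With nanoparticles the order was Irf7, Irf5, Irf4, Irf1, Irf8, Irf9, Irf3 and Irf2, and the ranges overlapped for Irf7 and Irf5, for Irf4 and Irf1 and for Irf8 and Irf9. Levels of different genes depend on the length used. The authors' values divide by all exonic bases of a gene, for example 7055 for Irf8 and 5386 for Irf9, while the longest principal transcripts have 2847 and 2459 bases. With the principal transcript length Irf5, Irf4 and Irf7 kept their places in vehicle, Irf2 at 24.2 FPKM moved ahead of Irf8 at 21.5 FPKM, and Irf4 with nanoparticles stood behind Irf1, Irf8 and Irf9, with ranges of Irf9 and Irf4 that overlapped.

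Opposite-strand neighbours overlap some members, and the strand setting of the counting is not stated. Irf5 shares 411 exonic bases with Tnpo3 (2.13 to 4.42 FPKM in any library), Irf1 shares 135 with Gm17334 (at most 0.733 FPKM), Irf3 shares 88 with Bcl2l12 (0.961 to 2.57 FPKM) and Irf7 shares 45 with Phrf1 (3.50 to 6.28 FPKM). Bcl2l12 was below Irf3 in every library. In vehicle Phrf1 (4.80 to 5.40 FPKM) stood above Irf7 (1.88 to 2.10 FPKM), and with nanoparticles it was far below Irf7. The part of reads from Phrf1 in the vehicle value of Irf7 was not tested.

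The genes with the most similar profile were found by the root mean square difference of log2(FPKM + 1) over the 6 libraries, with each profile set to its vehicle mean. For Irf7 these were the interferon-induced genes Ifit2 (difference 0.13) and Cmpk2 (0.24). Ifit2 was at 447, 152 and 170 FPKM in nanoparticle libraries 1 to 3, with the same high library 1 as Irf7. For Irf1 they were Tapbp, the tapasin gene of MHC class I loading (0.04), and Slfn2 (0.10). For Irf8 they were Fgfbp3 (0.04) and Rnf31 (0.05), for Irf9 Agrn (0.02), and for Irf4 Orc3 (0.01) and Nbn (0.03). Irf2 was closest to Mre11a and Tmem97 (0.03 each), Irf3 to Stambp (0.03) and Gm15519 (0.04), and Irf5 to Papd4 (0.02) and Decr2 (0.03). Similarity over 6 libraries in 2 groups is a description of these libraries.

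Genes that act with the IRFs were read from lists, with genes counted only where all vehicle libraries had at least 1 FPKM, so that no gene entered through its treated values. Among all 10066 such genes 32.7% were called, 15.4% higher and 17.2% lower, with a median log2 change of -0.02. Of the 16 sensors and adaptors upstream of IRF3, IRF5 and IRF7, 6 rose and 2 fell, with a median log2 change of 0.33. The RNA sensor genes Dhx58, Ddx58 and Ifih1 and the lipopolysaccharide co-receptor gene Cd14 were among those that rose. Dhx58 was at 3.55 to 4.43 FPKM in vehicle and 38.1 to 43.9 FPKM with nanoparticles, a log2 change of 3.09 (limma adjusted p = 3.2e-05). Tlr9, the endosomal DNA receptor, fell by 1.05 on the log2 scale (limma adjusted p = 0.0031). The adaptor Myd88 and the receptor Tlr4 had log2 changes of 0.01 and 0.04 and did not pass.

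Of 13 kinases, scaffolds and ligases that act on IRFs, 9 rose and 1 fell, with a median log2 change of 0.82. Tbk1, the kinase that phosphorylates IRF3 and IRF7, was at 16.3 to 17.2 FPKM in vehicle and 28.3 to 36.4 FPKM with nanoparticles (log2 change 0.85, limma adjusted p = 0.0034). Its relative Ikbke went from 2.92 to 3.12 to 7.98 to 15.1 FPKM, and the scaffold Tank from 9.87 to 11.9 to 34.1 to 43.9 FPKM. Peli1, a ubiquitin ligase, and Azi2, a scaffold for TBK1, rose by 1.75 and 1.07 on the log2 scale. Irak1 was the gene that fell, by 0.46 on the log2 scale (limma adjusted p = 0.0256). Without nanoparticle library 1 the counts of this list were 9 and 2, where 34.3% of all tested genes were called higher and 30.5% lower. Those shares include genes under 1 FPKM in a vehicle library, which the list counts leave out.

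Of 10 interferon receptor, JAK and STAT genes, 6 rose and 1 fell, with a median log2 change of 0.80. Stat2, which binds Irf9 in ISGF3, was at 11.2 to 11.6 FPKM in vehicle and 37.1 to 78.5 FPKM with nanoparticles (log2 change 2.03, limma adjusted p = 0.0025). Ifnar1 and Ifnar2, the chains of the type I interferon receptor, had log2 changes of 0.71 and 1.30 and passed. The interferon gamma receptor chains went opposite ways, with Ifngr1 lower by a log2 change of -0.81 (limma adjusted p = 0.0039) and Ifngr2 higher at 0.85 (limma adjusted p = 0.0011).

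Among 15 DNA-binding partners of IRFs, 9 rose and 3 fell, with a median log2 change of 1.03. Batf2 and Batf, which pair with IRF4 and IRF8 on composite elements, had log2 changes of 2.07 and 0.88 and passed, while Batf3, at 8.55 to 9.15 FPKM in vehicle, was lower in nanoparticle library 1 (7.02 FPKM) and higher in libraries 2 and 3 (13.8 and 15.1 FPKM). Spi1, which encodes PU.1, split the same way, at 158 to 161 FPKM in vehicle and 107, 217 and 226 FPKM in nanoparticle libraries 1 to 3. Nfatc2 fell by 1.84 on the log2 scale, and Nfkb2 and Junb rose by 2.70 and 1.55. Of 16 negative regulators, 8 rose and 1 fell, with a median log2 change of 0.37. Usp18, which removes ISG15 and blocks the interferon receptor, was at 4.85 to 6.56 FPKM in vehicle and 139 to 234 FPKM with nanoparticles (log2 change 4.72, limma adjusted p = 7.1e-05). Socs1 and Socs3, inhibitors of JAK kinases, rose by 2.27 and 2.33 on the log2 scale. Without nanoparticle library 1, 12 of these regulators rose and 3 fell, where 34.3% of all tested genes were called higher and 30.5% lower. Genes under 1 FPKM in a vehicle library are part of those shares but not of the list counts.

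Interferon genes themselves were scarce. Of 12 type I and type III interferon genes looked for, 5 were in the table and all were below the filter, so they have no test. Ifnb1, a classical target of IRF3 and IRF7, had 5, 0 and 0 reads in vehicle libraries 1 to 3 and 8, 43 and 53 reads in nanoparticle libraries 1 to 3, which is 0.653, 3.46 and 3.67 FPKM in the latter. The library with the highest Irf7 level thus had the lowest Ifnb1 level of its group. Ifna4 was at 0 in nanoparticle library 1 and had 6 and 8 reads in libraries 2 and 3.

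Genes known as targets of particular IRFs were counted in the same way; some belong to more than 1 list, and many answer to other factors as well. Of 10 targets of ISGF3, IRF3 and IRF7, all 10 rose, with a median log2 change of 6.44. In all 10 nanoparticle library 1 was the highest treated library. The same held for 5 of the 8 members, Irf1, Irf4, Irf7, Irf8 and Irf9, so the trait is not particular to Irf7. Of the listed targets not counted because of low vehicle values, Mx2 and Oasl1 also had library 1 highest. Cxcl10 had it lowest, at 120, 121 and 131 FPKM in nanoparticle libraries 1 to 3. Isg15, a ubiquitin-like modifier, was at 6.78 to 7.83 FPKM in vehicle and 963 to 1392 FPKM with nanoparticles. Rsad2, the antiviral viperin gene, was at 1104, 261 and 263 FPKM in nanoparticle libraries 1 to 3 against 2.03 to 2.45 FPKM in vehicle. Of 9 targets of IRF1, 8 rose and 1 fell, with a median log2 change of 2.43. Those that rose include the immunoproteasome subunit Psmb9 (log2 change 1.93) and the guanylate-binding proteins Gbp2 (4.96) and Gbp3 (4.53), and Ciita, the MHC class II transactivator, fell by 1.26 on the log2 scale (limma adjusted p = 0.0026).

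Of 4 targets of IRF5, all 4 rose, with a median log2 change of 3.38. Il1b, the interleukin-1 beta gene, was at 7.45 to 8.74 FPKM in vehicle and at 2866, 2814 and 2681 FPKM in nanoparticle libraries 1 to 3, a narrow treated range with library 1 highest. For Ccl3, Ccl4 and Tnf library 1 was the lowest of the treated libraries, as it was for Irf2, Irf3 and Irf5. Il6, Il12b and Il23a, also listed as targets of IRF5 but not counted because of their low vehicle values, had library 1 highest. Ccl3 was at 2781, 4661 and 4379 FPKM and Tnf at 965, 1264 and 1072 FPKM in nanoparticle libraries 1 to 3. Of 10 targets of IRF8 and IRF4, 5 rose and 2 fell, with a median log2 change of 0.63. Ccr7, the receptor for migration to lymph nodes, was at 1.75 to 2.62 FPKM in vehicle and 105 to 124 FPKM with nanoparticles. Klf4, a factor of type 2 dendritic cells, fell by 2.44 on the log2 scale (limma adjusted p = 2.3e-04). Ccl17 was at 1560 FPKM in nanoparticle library 1, below the vehicle range of 2235 to 2579 FPKM, and at 4707 and 5503 FPKM in libraries 2 and 3, and did not pass.

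**Figure D5:**
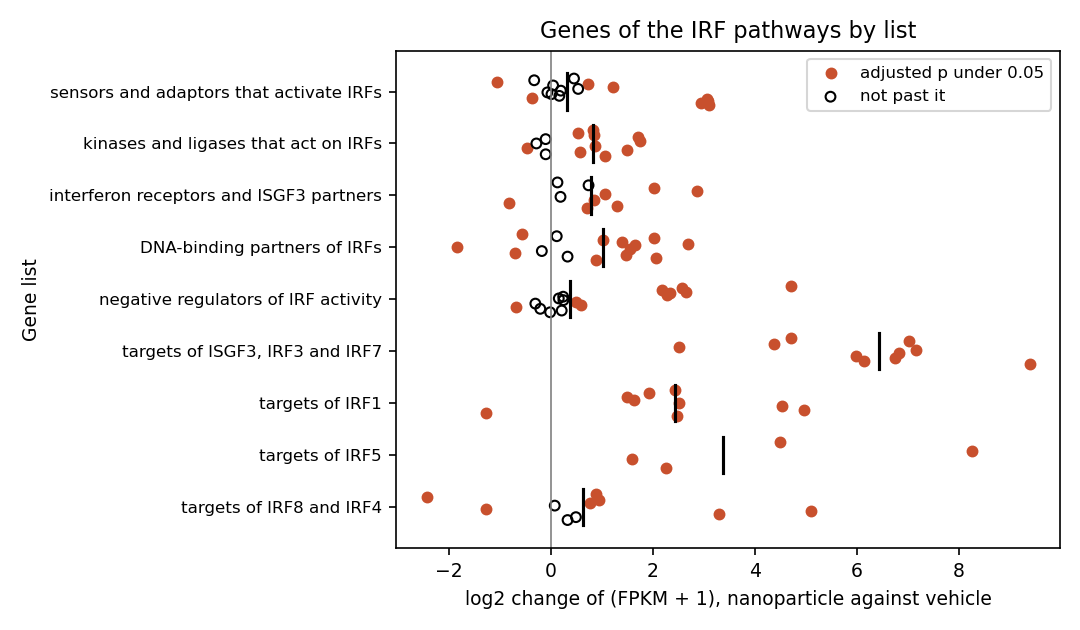
Log2 change of (FPKM + 1) for the tested genes of each list that had at least 1 FPKM in all vehicle libraries; filled points passed an adjusted p of 0.05, open points did not, and vertical bars mark list medians. The medians run from 0.33 for sensors and adaptors to 6.44 for targets of ISGF3, IRF3 and IRF7.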

How the data were processed

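RNA sequencing libraries of 3 vehicle and 3 nanoparticle samples were grouped by the sample titles. The submitters' processing notes name STAR 2.5, HTSeq, edgeR 3.16.5, DESeq2 and the builds mm10 and hg19, with no role for each. The authors deposited 2 tables with identical values (140388), which are not whole numbers and were taken as FPKM from the values alone. Multiplied by GENCODE M21 merged exon lengths and 1 scale per library, 95.88% to 96.2% of values above 0 were whole reads (within 0.02), and all members' values were. Another length was found for 477 of 483 abundant genes. The scales matched median-of-ratios size factors within 0.0144%.

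Because these are FPKM, limma 3.58.1 (R 4.3.3) was run on log2(FPKM + 1) for the 10682 genes that reached 1 FPKM in 3 libraries or more, with group as its term and the trend option. P-values were adjusted over all of these by Benjamini-Hochberg, threshold 0.05. Checked on simulated data with the same spread in every library, the fit recovered most known changes. The real treated libraries vary more than the vehicle libraries, so the check does not cover unequal spread. Ratios and sums were compared by exact permutation. Alternatives changed scaling, pseudocount, filter, trend, replicate block and libraries; limma-voom on recovered reads, list and marker counts in other settings and the transcript lengths were added after seeing the data. Named genes were all members, up to 3 per list with the smallest adjusted p, other listed genes chosen after their values were seen, and the 2 nearest profiles per member; some genes under this rule are not reported here. Members and lists were chosen with earlier results of these data known. Sequences are RefSeq's (GRCm38.p6). Read counts give counting error only.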

Additional observations from a re-analysis of the deposited data

How the results depend on the processing

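Irf7, Irf1, Irf9 and Irf8 kept their direction and stayed past the threshold in all 15 alternatives, and so did the direction of the 5 ratios and of the summed level in theirs. The number of members called was 4 to 6, with 6 without nanoparticle library 1 and 5 with total read scaling, a filter of 5 FPKM and limma-voom. Irf3, Irf4 and Irf5, which were not called, turned to log2 changes of -0.21, -0.30 and -0.18 with total read scaling. The median of all genes was -0.28 with that scaling. With 1 library left out Irf4 ran from -0.13 (without nanoparticle library 1) to 0.15, and was -0.02 without vehicle library 1. Over all genes, 3550 calls became 2141 to 6923 when 1 library was left out, the most without nanoparticle library 1 and the fewest without vehicle library 3; the cause was not tested. Total read scaling split the calls into 1108 higher and 3613 lower, against 1817 and 1733. As shares of all tested genes these were 10.4% and 33.8% with total read scaling, and without nanoparticle library 1 the shares were 34.3% and 30.5%. With total read scaling the sensors and adaptors had 5 higher and 4 lower (median 0.01), the kinases and ligases 6 and 3, the negative regulators 7 and 3 and the targets of IRF8 and IRF4 3 and 2; without nanoparticle library 1 the first and the last of these had 9 and 8 higher, with 2 lower each. With the replicate number as a block 2785 genes and the same number of members, 4, were called. Same-numbered libraries deviated with correlations of 0.065, 0.113 and -0.058, and nanoparticle library 3 correlated best with vehicle library 2, so the numbers were not taken to pair the libraries. Vehicle Irf7, on 141 to 158 reads, is the member value with the largest counting error.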

Other observations

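The genes of the IRF2-binding proteins, corepressors named for their partner Irf2, differed among themselves. Irf2bpl was at 16.1, 15.03 and 15.3 FPKM in vehicle libraries 1 to 3 and at 9.400, 8.995 and 9.358 FPKM in nanoparticle libraries 1 to 3, and fell by 0.68 on the log2 scale (limma adjusted p = 0.0019). Irf2bp2 was at 18.5 to 20.5 FPKM in vehicle and 15.6 to 17.3 FPKM with nanoparticles, without overlap but not past the threshold (log2 change -0.21, limma adjusted p = 0.1533). Irf2bp1 was at 5.73 to 5.87 FPKM in vehicle and at 5.33, 7.40 and 8.22 FPKM in nanoparticle libraries 1 to 3, so its treated libraries lie on both sides of the vehicle range (limma adjusted p = 0.3359).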
